A study of Mus musculus with 12 samples.

Results

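The 39 genes described here encode signaling, adhesion and actin proteins that are best known from blood cells. They were named by symbol, from a list of genes restricted to blood cells, and all 39 were found among the 24809 genes that the deposited count table covers, on 72 of its 41388 RefSeq transcripts. They were chosen by what their proteins do and selected on their levels in these same libraries, so the levels are given as a description and are not tested. Differences between the groups were also known at that time, so counts of members that passed a test stand beside the share of all transcripts that passed it, and nothing particular to the group of genes is read from them.

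RNA-seq was performed on 12 libraries of female germline stem cells (FGSCs) of C57BL/6 mice, passaged more than 20 times, in 4 groups of 3. The KO group carried a CRISPR/Cas9 knockout of *Stella* (listed as *Dppa3*, a maternal-effect gene of germ cells and early embryos), made with a lentiviral guide vector and expanded from 1 clone, so knockout and clone cannot be told apart. KO-con was its control, and the treatment of these cells was not given in the sources used here. The Over group was infected with a lentivirus carrying the *Stella* coding sequence and selected with puromycin, and Over-con received the empty lentiviral vector; the promoter that drives the transgene was not given. All 4 groups were grown on inactivated STO mouse fibroblast feeders with leukemia inhibitory factor, epidermal growth factor, basic fibroblast growth factor and GDNF. The sources do not say whether the 3 libraries of a group came from separate cultures, so the p-values measure the spread between these libraries, which may be technical.

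Most of the members act in the signaling of receptors that carry an immunoreceptor tyrosine-based activation motif (ITAM), such as the antigen and Fc receptors of lymphocytes, mast cells and macrophages. Src-family kinases phosphorylate the motif, transmembrane and cytosolic adaptors then assemble a complex around a phospholipase, and exchange factors in that complex load RAC GTPases. These drive the actin-branching machinery and the integrins with which blood cells crawl, adhere and engulf. Most other cell types use widely expressed relatives of the same proteins, such as RAC1 for RAC2 or N-WASP for WASP.

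Total counts per library lay between 5611846 and 12866545, with a median of 10221419, and levels are in CPM, counts relative to the total of the library, after TMM scaling over all 12 libraries. *Dppa3* itself had 0 counts in every KO, KO-con and Over-con library and 285 to 371 counts in the Over libraries, so the table does not separate the KO line from its control by the targeted gene. Some germline genes by which the study characterized these cells were also at or near 0 (*Ddx4* 0 counts, *Dazl* and *Pou5f1* at most 0.0348 CPM as group means). *Prdm1* (Blimp1) had group means from 0.313 CPM in KO to 1.84 CPM in KO-con. *Ifitm3* (Fragilis), a gene of primordial germ cells also expressed elsewhere, lay between group means of 95.3 and 154 CPM. Among meiosis genes, *Stra8* had group means of at most 0.0358 CPM and *Sycp3* of 1.54 to 1.83 CPM. Genes with more than 1 listed transcript carried few counts in this table: 446 of 7540 such coding genes (5.9%) reached 10 CPM on their most counted transcript, against 5232 of 13102 (39.9%) with 1 transcript, and *Gapdh*, with 2 transcripts, had 23 counts in all libraries together. The cause was not tested. Of the members, 18 have more than 1 listed transcript, and a low value of one of these is not read here as a low expression level. The same holds for the germline genes *Ddx4*, *Dazl* and *Pou5f1*, with 2 listed transcripts each, whereas *Prdm1*, *Ifitm3*, *Stra8* and *Sycp3* have 1. In bulk RNA, fewer cells of a type and less RNA per cell cannot be told apart.

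The stretches before the transcription start of 5 members are shown. Plek, Lat, Cytip and Cd48 are among the 8 members that differed between KO and KO-con by the test described below, and Dock2 is the member of the highest count. The other members that differed are not shown, so these stretches do not stand for all of them. Each is the 250 bases upstream of the RefSeq start on GRCm38.p6, written 5′ to 3′ on the strand of the gene, with matches of either strand to GAGGAA (the core of sites of PU.1, the ETS factor of myeloid and B cells), CGGAAG (a general ETS site), TGTGGT (RUNX) or AGATAA, a site of GATA factors, in capitals.
Dock2 (chr11:34783906-34784155, minus strand): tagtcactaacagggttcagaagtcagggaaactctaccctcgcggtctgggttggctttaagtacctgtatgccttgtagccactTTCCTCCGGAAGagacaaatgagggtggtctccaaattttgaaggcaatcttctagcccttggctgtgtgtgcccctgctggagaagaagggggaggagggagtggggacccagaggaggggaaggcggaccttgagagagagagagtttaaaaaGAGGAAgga
Plek (chr11:17008719-17008968, minus strand): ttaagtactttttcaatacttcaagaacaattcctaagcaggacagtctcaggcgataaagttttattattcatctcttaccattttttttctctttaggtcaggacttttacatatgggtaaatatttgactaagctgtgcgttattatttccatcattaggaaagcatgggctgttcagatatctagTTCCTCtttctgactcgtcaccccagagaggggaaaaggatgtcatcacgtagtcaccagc
Lat (chr7:126369569-126369818, minus strand): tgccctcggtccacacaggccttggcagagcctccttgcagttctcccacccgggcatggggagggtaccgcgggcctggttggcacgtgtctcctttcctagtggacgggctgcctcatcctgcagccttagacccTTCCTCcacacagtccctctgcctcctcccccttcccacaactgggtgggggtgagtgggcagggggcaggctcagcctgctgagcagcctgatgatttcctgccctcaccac
Cytip (chr2:58160123-58160372, minus strand): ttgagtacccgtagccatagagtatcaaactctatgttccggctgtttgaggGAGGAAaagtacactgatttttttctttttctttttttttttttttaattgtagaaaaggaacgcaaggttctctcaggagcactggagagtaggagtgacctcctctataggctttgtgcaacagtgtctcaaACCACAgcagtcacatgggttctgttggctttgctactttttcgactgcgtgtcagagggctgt
Cd48 (chr1:171681742-171681991, plus strand): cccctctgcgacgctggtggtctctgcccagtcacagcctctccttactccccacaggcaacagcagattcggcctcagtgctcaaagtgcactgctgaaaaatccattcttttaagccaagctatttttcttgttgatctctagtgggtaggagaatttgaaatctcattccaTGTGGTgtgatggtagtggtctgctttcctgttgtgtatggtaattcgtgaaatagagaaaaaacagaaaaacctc
The *Dock2* stretch holds 2 PU.1-type matches, the first of them, on the opposite strand, directly followed by a general ETS match, and *Plek* and *Lat* hold 1 PU.1-type match each. *Cytip* holds 1 PU.1-type and 1 RUNX match, and *Cd48* 1 RUNX match. *Btk* and *Hcls1*, which also differed but are not shown, held none of the marked strings in their 250 upstream bases, and *Myo1f* held TGTGGT.

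RefSeq promoter windows, from 250 bases before to 50 bases after the start, were found for 30 of the 39 members. In these 300 bases, 19 of 30 members (63.3%, 95% Wilson interval 45.5 to 78.1) held GAGGAA on either strand, against 31.1% of the promoters of all 26742 genes with a window. TGTGGT was found in 40.0% of the members (24.6 to 57.7) and 18.8% of all genes, and CGGAAG in 26.7% (14.2 to 44.4) and 18.9%. The share with AGATAA was 13.3% of members (5.3 to 29.7) and 12.7% of all genes, that with TATAAA (the TATA box) 16.7% and 15.6%, and that with CACGTG (an E box) 16.7% and 8.1%. GAGGAA and CGGAAG share the letters GGAA but were counted as separate strings. A member with several starts was counted once, as were all other genes, and the members had a median of 6.25 CG dinucleotides per window against 7.5 over all genes. Part of the GAGGAA matches of the members lay after or across the start: in the 250 upstream bases alone the share was 40.0% (24.6 to 57.7) against 26.0% of all genes. These matches are descriptions of the letters and say nothing of binding.

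The members fell apart by their number of listed transcripts. Of the 21 members with 1 transcript, 19 averaged 10 CPM or more and 15 averaged 100 CPM or more, with a median of 190.5 CPM. Of the 18 with more than 1 transcript, 2 reached 10 CPM (*Ptprc* and *Itgb2*) and the median was 0.742 CPM. Summed over the members, the most counted transcripts made up between 8115 and 9670 CPM of each library, with group means of 8846 ± 623 (SD, n = 3) for KO and 8388 ± 245 for KO-con, beside 8748 ± 55.0 for Over and 9053 ± 539 for Over-con. The order of these sums is a description.

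**Figure D1:**
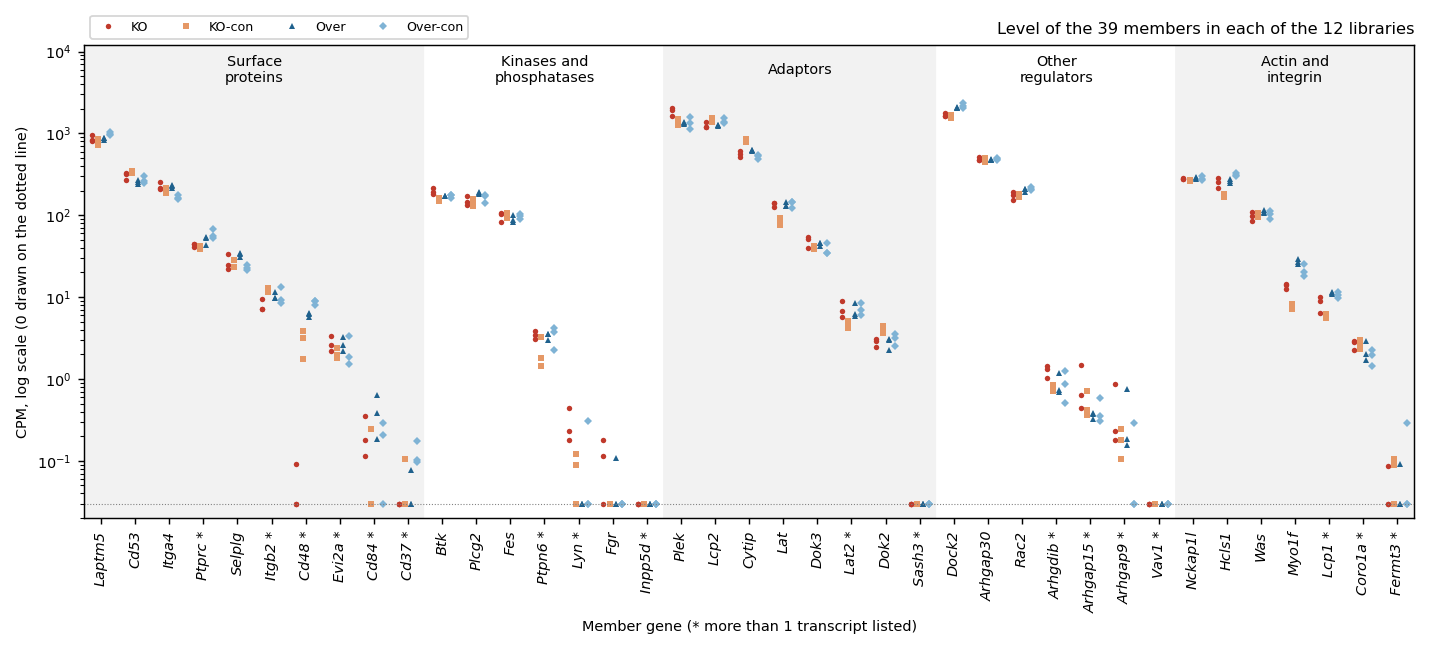
Levels of the 39 members (CPM, log axis) in the 12 libraries, by role and then by mean level. Each point is a library, colours and shapes mark the 4 groups, values of 0 are drawn on the dotted line, and an asterisk marks members with more than 1 listed transcript. Most members with 1 transcript lie above 10 CPM in every group, and those with more than 1 mostly lie below.

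Among the surface proteins, 6 of 10 members averaged 10 CPM or more. *Laptm5*, a lysosomal protein that promotes degradation of antigen receptors, was read in every library, from 729 to 1053 CPM. Per kilobase of transcript it stood at 339.9 CPM, above 97.8% of the 6538 genes with 1 listed transcript and at least 1 CPM, whose median was 18.0 CPM per kilobase. *Cd53*, a leukocyte tetraspanin, ranged from 242 to 350.2 CPM and stood at 105 CPM per kilobase. *Itga4*, the integrin subunit alpha 4 that binds VCAM-1 and fibronectin, ranged from 157 to 252 CPM (20.7 CPM per kilobase), and *Selplg*, the P-selectin ligand, from 21.2 to 34.4 CPM (10.4 CPM per kilobase). *Ptprc*, the receptor phosphatase CD45 and the classical surface mark of blood cells, ranged from 38.9 to 67.1 CPM on 1 of its 3 listed transcripts, and the other 2 had 0 counts. *Itgb2*, the beta 2 subunit of leukocyte integrins, ranged from 7.08 to 13.3 CPM, *Cd48*, a surface protein of the SLAM family, from 0 to 9.05 CPM, and *Evi2a*, a small membrane protein, from 1.54 to 3.34 CPM. *Cd37* had 5 counts and *Cd84* 27 counts over all libraries and transcripts.

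Of the kinases, phosphatases and the phospholipase, *Btk*, the Tec-family kinase downstream of the B cell and Fc receptors, ranged from 149.6 to 215 CPM (68.7 CPM per kilobase). *Plcg2*, the phospholipase C gamma of B cells and myeloid cells, ranged from 131 to 189.8 CPM, and *Fes*, a tyrosine kinase of myeloid cells, from 81.5 to 106 CPM. *Ptpn6*, which encodes the inhibitory phosphatase SHP-1 and has 2 listed transcripts, ranged from 1.46 to 4.24 CPM. *Lyn* had 14 counts in all, and *Inpp5d* (the phosphatase SHIP1, with 4 listed transcripts) had 0. *Fgr*, a Src-family kinase with 1 listed transcript, had 4 counts over the 12 libraries, of which 3 fell in KO; it was the member with 1 transcript that came nearest to 0. Group means of *Btk*, *Plcg2* and *Fes* differed by at most 1.31 times.

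Adaptors were the role with the highest median, 82.8 CPM over its 8 members. *Lcp2* encodes SLP-76, the cytosolic scaffold of the ITAM complex. It ranged from 1187 to 1526 CPM and stood highest of all members per kilobase, at 367 CPM, followed by *Plek*, the PKC substrate pleckstrin, at 361. The means of *Lcp2* and *Plek* differ by less than the spread over the libraries. *Cytip*, which binds the exchange factor cytohesin-1, stood at 103 and *Lat*, the transmembrane linker for activation of T cells, at 99.0 CPM per kilobase. *Dok3*, an inhibitory docking protein, ranged from 34.4 to 53.8 CPM and *Dok2*, its relative, from 2.26 to 4.38 CPM. *Lat2*, the linker of B and mast cells, ranged from 4.22 to 9.04 CPM on 1 of 2 transcripts, and *Sash3* had 0 counts.

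Among the other cytosolic regulators, *Dock2*, the exchange factor that activates Rac in migrating leukocytes, ranged from 1536 to 2374 CPM (295 CPM per kilobase, above 97.4% of the genes with 1 transcript). *Arhgap30*, a GTPase-activating protein, ranged from 446 to 520.3 CPM and was the most even member, with group means that differed by at most 1.03 times. *Rac2*, the GTPase of blood cells, ranged from 152 to 220.3 CPM. *Vav1*, an exchange factor with 3 listed transcripts, had 0 counts, and *Arhgap9*, *Arhgap15* and *Arhgdib*, with 4, 4 and 6 transcripts, had 58, 74 and 299 counts summed over libraries and transcripts.

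Of the actin and integrin group, *Nckap1l* (HEM1, the blood-cell subunit of the WAVE complex) ranged from 261 to 299 CPM, and *Was*, the Wiskott-Aldrich syndrome protein that activates the Arp2/3 complex, from 84.0 to 117 CPM. *Hcls1*, the cortactin relative of blood cells, ranged from 167 to 333 CPM (124 CPM per kilobase), and *Myo1f*, a class I myosin, from 7.18 to 28.9 CPM. The bundling protein *Lcp1* (L-plastin) ranged from 5.53 to 11.6 CPM on the more counted of its 2 transcripts and *Coro1a* from 1.44 to 3.02 CPM. *Fermt3* (kindlin-3) had 7 counts in all. Over the 21 members with at least 10 CPM, the ratio of the highest to the lowest group mean had a median of 1.34, and it exceeded 1.5 for 5 members, *Cytip*, *Itgb2*, *Lat*, *Hcls1* and *Myo1f*. KO-con held the lowest mean of 10 of these 21 members, Over of 5, Over-con of 4 and KO of 2.

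Compared per kilobase with the relatives fixed for them, the members differed among themselves. How widely each relative is expressed was not tested. Only pairs in which both genes have 1 listed transcript are compared, which leaves 9 members. *Dock2*, at 295 ± 41.8 CPM per kilobase (SD over the 12 libraries), was 20.5 times *Dock1* (14.4 ± 1.01) and 19.5 times *Dock5* (15.2 ± 0.736). *Rac2* (62.7 ± 6.66) was 8.21 times *Rac3* (7.65 ± 1.06), and *Laptm5* (340 ± 34.7) was 1.69 times *Laptm4a* (201 ± 19.1) and 9.40 times *Laptm4b* (36.2 ± 3.70). *Plek* (361 ± 69.4) and *Btk* (68.7 ± 6.61) stood beside *Plek2* and *Bmx* at 0.0818 and 0.0105. In these 5 members the lowest library lay above the highest library of each relative compared here. *Cd53* (105 ± 14.3) lay between *Cd9* (19.8 ± 1.83) and *Cd81* (249.97 ± 22.8). *Plcg2* (37.5 ± 5.01) and *Plcg1* (40.1 ± 3.52), the isoform of most tissues, differed by less than their spread over libraries. *Itga4* (20.7 ± 2.99) lay below *Itgav* (56.4 ± 8.93) and *Myo1f* (4.56 ± 2.06) below *Myo1e* (11.6 ± 1.62). *Rac1*, *Tec*, *Nckap1*, *Cttn* and other relatives have more than 1 listed transcript and were not set beside their members. *Rac2* and *Btk* were thus compared with only part of their relatives, without *Rac1* and *Tec*.

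**Figure D2:**
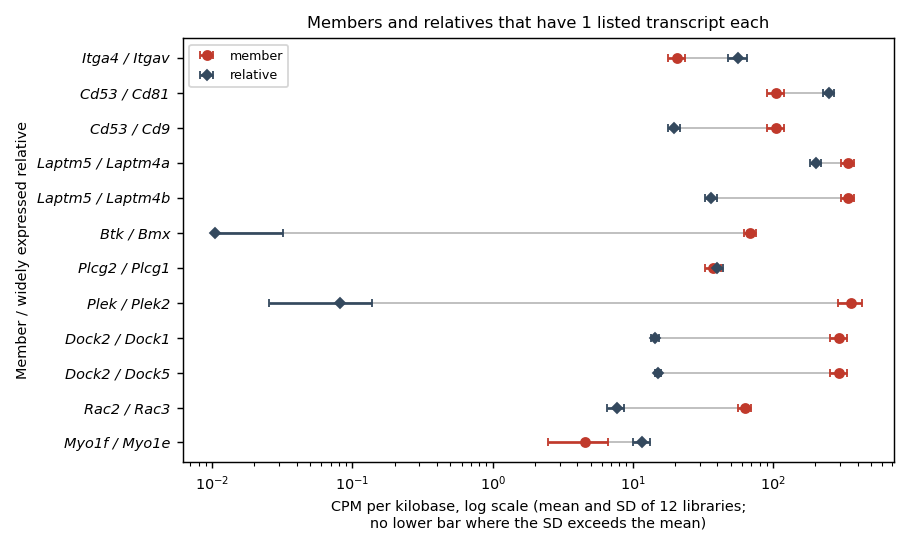
Members (red circles) and the relatives fixed for them (dark diamonds) in CPM per kilobase of transcript on a log axis, as mean and SD over the 12 libraries, for pairs with 1 listed transcript each. Dock2, Rac2, Laptm5, Plek and Btk lie to the right of their relatives, whereas Itga4 and Myo1f lie to the left and Plcg2 coincides with Plcg1.

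The first comparison asked which members differ in the *Stella* knockout, KO against KO-con. Of the 29 members with enough counts to be tested, 8 (27.6%) passed an adjusted p of 0.05, 5 higher and 3 lower in KO, where 11.8% of all 9457 transcripts tested passed (5.83% higher and 5.96% lower). The 5 that rose were adaptors, a kinase and actin proteins (*Plek*, *Lat*, *Btk*, *Hcls1*, *Myo1f*), and the 3 that fell were the surface proteins *Cd48* and *Itgb2* and the adaptor *Cytip*. The summed level of mast cell markers, nearly all of it *Cpa3*, had a mean of 1182 CPM in KO and 407 CPM in KO-con, and its part in these results was not tested. The median log2 fold change of the members was 0.11, against 0.0067 over all transcripts. The 3 libraries of KO and of KO-con did not overlap for 14 of the 29 members (48.3%), against 29.9% of all transcripts. With 3 libraries against 3, the smallest p that exact permutation of 1 gene allows is 0.1, so calls rest on the edgeR fit across all transcripts. The SE given with each log2 fold change was derived from the F statistic of that fit.

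*Plek* lies at chr11:16871209-16952384 on the minus strand of mm9. It had 1956, 1651 and 2067 CPM in KO and 1268, 1486 and 1340 in KO-con, so all KO libraries lay above all KO-con libraries. Its log2 fold change was 0.47 (SE 0.09, adjusted p = 0.0029), and the Over-con libraries, at 1572, 1322 and 1127, overlapped with KO-con. *Lat* (chr7:133507346-133513057 on the minus strand) had 125, 139.6 and 140.2 CPM in KO against 93.5, 75.6 and 77.7 in KO-con, a log2 fold change of 0.72 (SE 0.09, adjusted p = 4.78e-05). Here KO-con stood apart from the other 3 groups, since Over had 130.5, 129 and 145 and Over-con 123, 146 and 147 CPM.

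*Hcls1* (chr16:36935069-36963298 on the plus strand) had 215, 251 and 283 CPM in KO and 179.6, 175 and 167 in KO-con, a log2 fold change of 0.53 (SE 0.09, adjusted p = 0.000919), and the Over-con libraries were higher still at 314, 298 and 333. *Myo1f* (chr17:33692664-33744709 on the plus strand) had 12.7, 14.4 and 14.3 CPM in KO and 7.4, 7.18 and 8.33 in KO-con (log2 fold change 0.86, SE 0.15, adjusted p = 0.00119), with 20.0, 18.3 and 25.4 in Over-con. For both genes KO lay between the control groups, above KO-con and below Over-con. *Btk* (chrX:131076875-131118109 on the minus strand) had 194, 179 and 215 CPM in KO and 164, 164 and 149.6 in KO-con, with a log2 fold change of 0.31 (SE 0.08, adjusted p = 0.0188). Its call was lost when KO replicate 3 or KO-con replicate 1 or 3 was left out, with adjusted p up to 0.0934.

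Of the members that fell, *Cytip* (chr2:57981548-58047943 on the minus strand) had 554, 518 and 606 CPM in KO and 853, 813 and 784 in KO-con, a log2 fold change of -0.54 (SE 0.07, adjusted p = 0.000194). KO-con held the highest level of the 4 groups, with 622, 603 and 633 in Over and 536, 491 and 540.1 in Over-con. *Itgb2* (chr10:76992997-77028453 on the plus strand) had 9.38, 7.25 and 7.08 CPM in KO and 12.8, 11.97 and 11.6 in KO-con (log2 fold change -0.62, SE 0.16, adjusted p = 0.0181), and its call was lost without KO replicate 2 or KO-con replicate 1 or 2, with adjusted p up to 0.0818. Of its 3 listed transcripts, 1 carried nearly all counts (1199 of 1215).

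*Cd48* (chr1:173612140-173635389 on the plus strand) was the member with the largest change. It had 0, 0 and 0.0908 CPM in KO, which is 1 count in the 3 libraries together, against 3.86, 1.77 and 3.14 CPM or 83 counts in KO-con. The level in KO-con was 88.8 times that in KO, with a 95% counting interval of 15.5 to 3551 that covers counting error only. The fitted log2 fold change was -6.02 (SE 0.71, adjusted p = 4.39e-05). With 1 count in KO, this SE is narrower than the counting interval and understates the uncertainty of the size of the change. The same limit holds for the SE of *Cd48* in the other fits that include KO. *Cd48* was the only member that also exceeded an absolute log2 fold change of 1, the rule of the study for a differentially expressed gene (DEG), which 1.7% of all transcripts met. *Cd48* was tested because of its counts in KO-con and drops out of the test, here and for the difference between the effects, when at least 10 counts are required in every library, and it has 2 listed transcripts of which 1 carried all counts. *Arhgap30*, which lies on the same chromosome at chr1:173319085-173340429 on the plus strand, was even across the groups, with a log2 fold change of 0.05 (SE 0.07, adjusted p = 0.741).

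Of the 21 tested members that were not called in KO, the largest absolute log2 fold change was 0.69, for *Arhgdib* (SE 0.39, adjusted p = 0.300), at under 2 CPM. *Lcp1* at 0.55 (SE 0.19, adjusted p = 0.0788) and *Lat2* at 0.58 (SE 0.21, adjusted p = 0.0883) did not overlap between groups but missed the threshold. *Rac2* had 0.01 (SE 0.08), *Was* -0.04 (SE 0.09) and *Fes* 0.0048 (SE 0.09). The phospholipase *Plcg2* had 0.09 (SE 0.09), *Dock2* 0.07 (SE 0.07), *Lcp2* -0.17 (SE 0.08) and *Ptprc* 0.11 (SE 0.09). By role, 2 of 8 tested surface proteins, 1 of 4 enzymes, 3 of 7 adaptors and 2 of 6 actin and integrin genes were called.

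The second comparison asked which members differ when *Stella* is overexpressed, Over against Over-con. Of the 28 members tested, 2 (7.1%) were called, both surface proteins and both higher in Over, where 1.65% of 9401 transcripts were called in either direction, 0.766% higher and 0.883% lower. *Itga4* (chr2:79095583-79173280 on the plus strand) had 217, 226 and 234 CPM in Over and 157, 175 and 160.4 in Over-con, and its log2 fold change was 0.45 (SE 0.07, adjusted p = 0.00142). *Selplg* (chr5:114267807-114280510 on the minus strand) had 33.9, 34.4 and 31.3 CPM in Over and 22.4, 21.2 and 24.9 in Over-con (log2 fold change 0.52, SE 0.10, adjusted p = 0.0147), and its call was lost without Over replicate 1 or 2 or Over-con replicate 1, with adjusted p up to 0.102. Both encode adhesion molecules with which leukocytes bind the vessel wall. For both genes, every Over library lay above every Over-con library.

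On the most counted transcripts, the groups did not overlap for 8 of the 28 members (28.6%), against 18.9% of all transcripts. No member met the DEG rule by edgeR or by DESeq2, and 0.17% of all transcripts did. On the same transcripts, 9 members had an unadjusted p under 0.05, as had 13% of all transcripts. *Hcls1* just missed the threshold at -0.27 (SE 0.07, adjusted p = 0.0521), with 259.9, 279 and 251 CPM in Over and 314, 298 and 333 in Over-con. *Cytip* had 0.24 (SE 0.06, adjusted p = 0.0713) and *Laptm5* -0.22 (SE 0.06, adjusted p = 0.0982). The second transcript of *Lcp1*, with 97 counts in all libraries, had -1.60 (SE 0.44, adjusted p = 0.091) in groups that did not overlap, and the most counted one had 0.05 (SE 0.14). *Cd48* had 6.48, 6.21 and 5.69 CPM in Over and 8.98, 7.9 and 9.05 in Over-con, groups that did not overlap (log2 fold change -0.51, SE 0.16, adjusted p = 0.151). *Btk*, *Nckap1l* and *Plek* had -0.0017 (SE 0.06), 0.01 (SE 0.06) and -0.02 (SE 0.09), and the median over the members was -0.03, against -0.0012 over all transcripts. Over-con replicate 3 differed from its fellow libraries more than those did from each other (chi-square per degree of freedom 9.52 and 10.7 against 4.87), and without it 9 members were called, where 7.49% of all transcripts were. The 7 added were *Cytip*, *Dok3*, *Hcls1*, *Laptm5*, *Lcp2*, *Myo1f* and *Plcg2*.

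**Figure D3:**
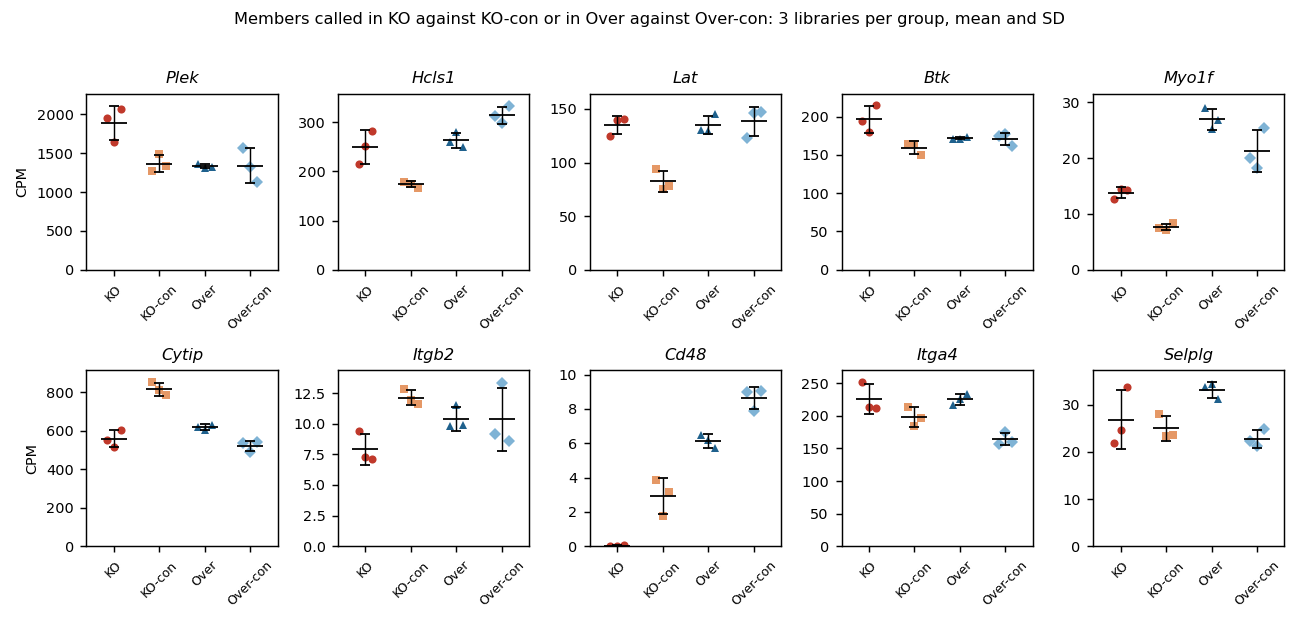
CPM in the 3 libraries of each group for the 8 members called in KO against KO-con and the 2 called in Over against Over-con, with axes that start at 0. Points are libraries, horizontal bars are means and error bars are SD. Hcls1 is lowest in KO-con and highest in Over-con, Myo1f is lowest in KO-con and highest in Over, Cytip is highest in KO-con, and Cd48 is close to 0 in KO.

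The 2 control groups were compared because both serve as references without a change in *Stella*, and neither had a *Dppa3* count. The members differed between KO-con and Over-con in more cases than in either line against its own control. Of 28 members tested, 13 (46.4%) were called, 3 higher and 10 lower in KO-con, where 16.3% of 9321 transcripts were called (8.08% higher and 8.19% lower). The groups did not overlap for 15 members (53.6%), against 31.9% of all transcripts. *Myo1f*, at -1.49 (SE 0.16, adjusted p = 7.86e-07), and *Cd48*, at -1.59 (SE 0.24, adjusted p = 7.01e-05), were lower in KO-con and met the DEG rule, as 2.16% of all transcripts did.

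The other members lower in KO-con came from every role but the enzymes. *Hcls1* had a log2 fold change of -0.85 (SE 0.07, adjusted p = 4.46e-08) and *Lcp1* of -0.90 (SE 0.17, adjusted p = 0.000802), the latter from 5.53, 5.68 and 6.15 CPM in KO-con and 11.6, 9.83 and 10.7 in Over-con. *Lat* had -0.75 (SE 0.09, adjusted p = 8.37e-06). *Dock2*, with 1663, 1645 and 1536 CPM in KO-con and 2374, 2147 and 2059 in Over-con, had -0.44 (SE 0.07, adjusted p = 0.000223), and *Rac2*, the GTPase that it activates, had -0.27 (SE 0.07, adjusted p = 0.0137), with 182, 175 and 167 CPM in KO-con and 208, 203 and 220.3 in Over-con. *Ptprc* had 38.9, 41.7 and 40.4 CPM in KO-con and 67.1, 52.3 and 55.9 in Over-con (-0.54, SE 0.10, adjusted p = 0.000712), and *Laptm5* had -0.32 (SE 0.07, adjusted p = 0.00463). *Lat2*, at -0.61 (SE 0.20, adjusted p = 0.0485), lost its call when any of 5 of the 6 libraries was left out, all but Over-con replicate 2. *Rac2* lost its call without KO-con replicate 2 or 3.

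Higher in KO-con were *Cytip* (0.65, SE 0.07, adjusted p = 1.30e-06), *Cd53* (0.34, SE 0.08, adjusted p = 0.00491) and *Itga4* (0.28, SE 0.08, adjusted p = 0.017). *Cd53* had 325, 349.6 and 350.2 CPM in KO-con and 304, 247 and 259.6 in Over-con, groups that did not overlap, and 315, 269.6 and 327 in KO. The call of *Itga4* was lost without KO-con replicate 1 or Over-con replicate 1, with adjusted p up to 0.129.

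**Figure D4:**
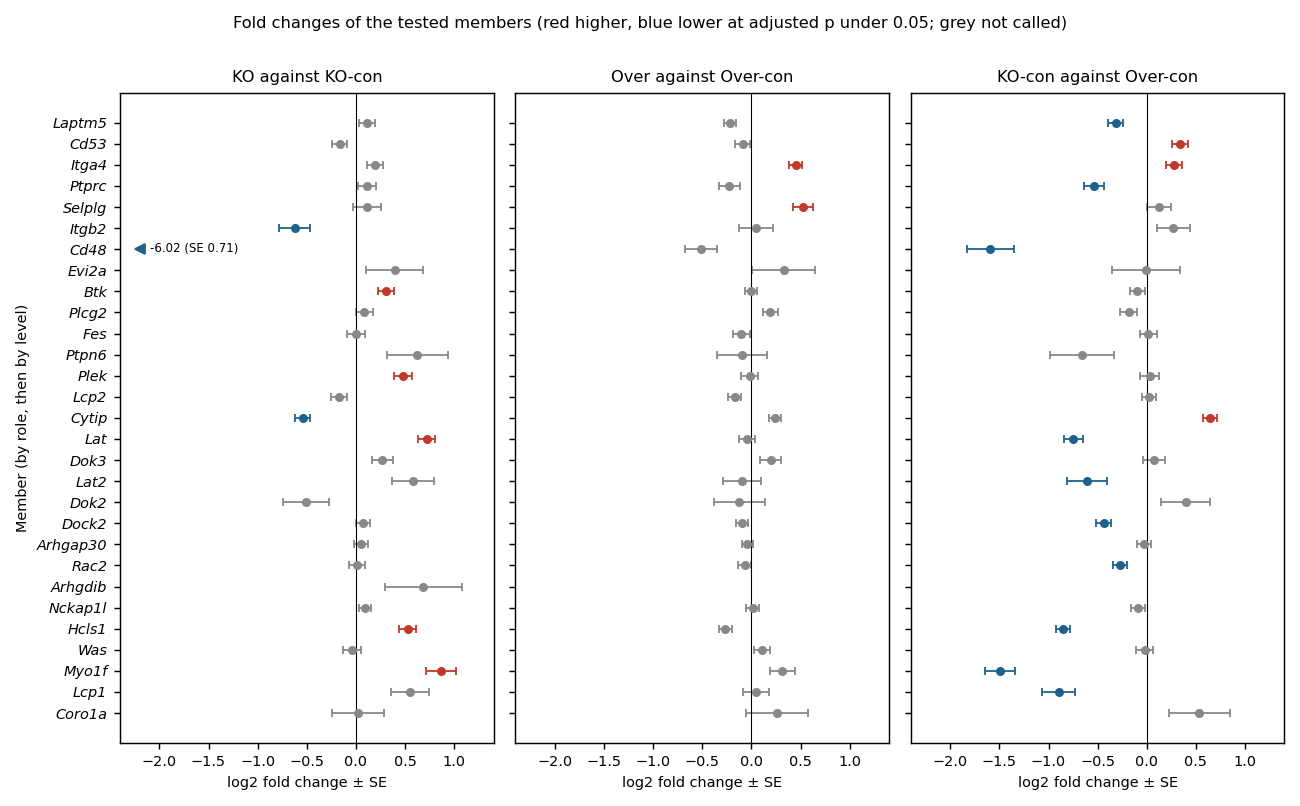
Log2 fold change and its standard error (derived from the F statistic) for the members tested, for KO and Over against their own controls and for KO-con against Over-con. Red marks members called higher, blue those called lower and grey those not called, and the arrow stands for Cd48 at -6.02. The controls differ for 13 members, KO and KO-con for 8 and Over and Over-con for 2.

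Since the controls differed, each line was also compared with the control of the other line. Against Over-con in place of KO-con, 7 of the 29 members were called in KO, where 7.87% of all transcripts were called. Of the 8 members called against KO-con, 4 were called again. *Cd48* (-7.60, SE 0.47, adjusted p = 2.01e-07) kept its direction, as did *Plek* (0.49, SE 0.12, adjusted p = 0.0187), whereas *Hcls1* (-0.34, SE 0.10, adjusted p = 0.0482) and *Myo1f* (-0.64, SE 0.15, adjusted p = 0.016) turned from higher to lower. *Cytip*, *Lat*, *Btk* and *Itgb2* were not called against Over-con, with log2 fold changes of 0.09, -0.04, 0.19 and -0.37. *Itga4* (0.46, SE 0.09, adjusted p = 0.0057) was higher in KO than in Over-con, and *Dock2* (-0.38, SE 0.08, adjusted p = 0.0117) and *Ptprc* (-0.44, SE 0.11, adjusted p = 0.0238) were lower. Against KO-con in place of Over-con, 14 members were called in Over, where 21.5% of all transcripts were. *Itga4* (0.18, SE 0.06, adjusted p = 0.0195) and *Selplg* (0.40, SE 0.09, adjusted p = 0.00232) were higher in Over with either control.

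The difference between the effects, that of KO on its control less that of Over on its own, was tested in 1 fit of the 12 libraries. Of 29 members tested, 5 (17.2%) were called, where 8.64% of 9903 transcripts were called (4.12% higher and 4.52% lower). The effects of *Hcls1* (0.79, SE 0.11, adjusted p = 0.000134), *Lat* (0.76, SE 0.12, adjusted p = 0.000429) and *Plek* (0.49, SE 0.14, adjusted p = 0.035) were more positive in KO, and those of *Cd48* (-5.50, SE 0.70, adjusted p = 3.99e-05) and *Cytip* (-0.78, SE 0.10, adjusted p = 2.55e-05) more negative. *Hcls1* and *Cytip* thus pointed one way in KO and had values of the opposite sign in Over, where neither passed its own test. *Cd48*, with 1.9% of all transcripts, met the DEG rule. The call of *Plek* was lost when any of 9 of the 12 libraries was left out. *Itga4* and *Selplg*, the members called in Over, had differences of -0.26 (SE 0.11, adjusted p = 0.156) and -0.41 (SE 0.19, adjusted p = 0.202), so an effect that differs from that in KO was not shown.

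Genes of the same pathways that are not members were taken from 2 fixed lists of 133 genes. In KO, 11 of 76 tested were called higher and 3 lower, which is to be read against 5.83% and 5.96% of all transcripts. Of the ITAM receptor list, *Prkcb*, the protein kinase C of B cell signaling, had 1.55 (SE 0.24, adjusted p = 0.000607). *Themis2*, an adaptor of B cells and macrophages, had 1.79 (SE 0.45, adjusted p = 0.0165) at group means of 1.46 CPM in KO and 0.402 in KO-con, *Sla*, the Src-like adaptor, had 0.75 (SE 0.17, adjusted p = 0.00877), and *Clnk*, a relative of SLP-76, fell with -0.29 (SE 0.09, adjusted p = 0.0373). Of the actin list, *Ccdc88b* had 0.43 (SE 0.07, adjusted p = 0.000595), *Arhgef6*, a Rac exchange factor, 0.46 (SE 0.14, adjusted p = 0.049) and *Cotl1*, an actin-binding protein, 0.36 (SE 0.10, adjusted p = 0.029). *Ncf4*, the phox subunit of the phagocyte oxidase, had 14.2 ± 1.12 CPM in KO and 26.4 ± 2.66 in KO-con (-0.89, SE 0.13, adjusted p = 0.000246). *Arpc2*, a subunit of the Arp2/3 complex, had -1.25 (SE 0.31, adjusted p = 0.016) at under 4 CPM.

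In Over, where 0.766% of all transcripts were higher and 0.883% lower, 0 of 76 tested pathway genes were higher and 2 lower, *Pik3ap1*, a PI3-kinase adaptor of B cells, at -0.38 (SE 0.06, adjusted p = 0.00555) and *Tmsb4x*, the actin-sequestering thymosin, at -0.32 (SE 0.07, adjusted p = 0.0357). Between the controls, 2 of 75 were higher and 16 lower in KO-con, where 8.08% and 8.19% of all transcripts were. The lower ones included *Ncf4* (-1.16, SE 0.10, adjusted p = 7.54e-08), *Prkcb* (-1.23, SE 0.24, adjusted p = 0.00112), *Pstpip2* (-0.85, SE 0.11, adjusted p = 9.61e-06) and *Cotl1* (-0.72, SE 0.11, adjusted p = 0.000126), and the higher ones were *Tagap* (0.86, SE 0.25, adjusted p = 0.0209) and *Elmo1*, the partner of DOCK proteins (0.45, SE 0.09, adjusted p = 0.00219). The difference between the effects was called for 5 genes in the higher and 2 in the lower direction of 79, where 4.12% and 4.52% of all transcripts were, among them *Prkcb* (1.98, SE 0.34, adjusted p = 0.000647) and *Ncf4* (-0.71, SE 0.14, adjusted p = 0.00303).

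Markers of cell types that use these proteins were read beside the members, as sums of CPM over each list. The limit on genes with more than 1 listed transcript holds for markers too, and among the defining markers at 0 it applies, with others, to *Ms4a2*, *Adgre1*, *S100a9*, *Csf3r*, *Cd8a*, *Lck*, *Cd79b*, *Cd22*, *Pdgfrb*, *Ddx4*, *Gfra1*, *Pecam1*, *Tek* and *Emcn*. Of 11 mast cell markers, 1 reached 10 CPM, *Cpa3*, and *Fcer1a*, *Ms4a2* and *Tpsab1* had 0 counts. The list summed to 1156 to 1228 CPM in KO and 367 to 433 in KO-con, and to 645.7 to 670.4 in Over and 752 to 860.4 in Over-con, so KO-con was lowest and KO highest. Of its 4 tested markers, 3 were called higher in KO than in KO-con, where 5.83% of all transcripts were. Of 11 macrophage markers, 1 reached 10 CPM (*Cd68*), *Adgre1*, *C1qa* and *C1qb* had 0 counts, and sums lay between 34.4 and 52.4 CPM. Of 9 neutrophil markers, 1 reached 10 CPM (*Cxcr2*), *S100a9* and *Csf3r* had 0 counts, and sums were 159 to 167 CPM for KO and 176 to 201 for KO-con, beside 267 to 274 for Over and 293 to 344 for Over-con. The 10 T cell markers of the table summed to at most 1.30 CPM, and the 8 B cell markers to at most 7.10 CPM. Of 10 erythroid and megakaryocyte markers, 2 reached 10 CPM (*Itga2b* and *Epor*), globin genes had 0 counts, and sums lay between 244 and 363 CPM.

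Of 14 markers of the STO feeder fibroblasts, 10 reached 10 CPM and *Pdgfrb* had 0 counts. They summed to 1228 to 1763 CPM for KO and 1362 to 1590 for KO-con, beside 1704 to 1784 for Over and 1946 to 2122 for Over-con. Of 11 tested, 6 were called lower in KO-con than in Over-con, where 8.19% of all transcripts were. In KO against KO-con, 2 of 11 were called lower, where 5.96% of all transcripts were. In both comparisons 0 were called higher. Of 13 markers of female germline stem cells, 1 reached 10 CPM (*Ifitm3*), *Ddx4* and *Gfra1* had 0 counts, and sums lay between 80.7 and 166 CPM, with the transgene transcript of *Dppa3* in those of Over. The endothelial list, of which 1 of 5 genes has 1 listed transcript, and the epithelial list stayed at or below 2.63 CPM. In KO against KO-con the fibroblast sums overlapped, with means of 1504 and 1479 CPM, while the mast cell sum was higher in KO and the neutrophil sum lower (164 against 187). Nearly all of the neutrophil sum was *Cxcr2* (163 against 186), and no neutrophil marker was called in KO or in Over against its own control. In Over the mast cell (661 against 807), neutrophil (271 against 320) and fibroblast (1735 against 2061) sums were below Over-con, and the same 3 sums were lower in KO-con than in Over-con. The macrophage sum, mostly *Cd68*, was higher in KO than in KO-con (47.4 against 37.5) and in Over than in Over-con (51.1 against 40.1). The erythroid and megakaryocyte sum was higher in KO (347 against 262), and its Over (336) and Over-con (295) libraries overlapped. The part of these sums in the results was not tested.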

How the data were processed

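RNA-seq of 12 libraries of mouse FGSCs (3 each of KO, KO-con, Over and Over-con) were analysed from the raw read counts per RefSeq transcript that the authors deposited. Per the labels and the methods of the study, mRNA libraries were made with a stranded kit, reads were trimmed and aligned to mm9 with HISAT2, and differential expression was called with DESeq2. The counting settings for strand and for reads shared between transcripts are not given in the sources used here; some counters leave out reads shared between transcripts of a gene, and whether that was done here was not tested.

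Symbols were assigned with a RefSeq gene table (GRCm38.p6) that matched 41181 of the 41388 transcripts, and mm9 gene positions and transcript lengths from the annotation of NCBIM37. In that annotation, exons of some members overlap genes of the opposite strand, among them *Itga4* (with *Cerkl*), *Plek* (with *Cnrip1*), *Dock2* and *Lcp2*. Exons of *Evi2a* overlap *Evi2b* on the same strand. Whether reads of the overlapping genes entered the counts of the members was not tested. A member's level is that of its most counted transcript. Counts were scaled by TMM and tested with edgeR 4.0.16 quasi-likelihood (R 4.3.3, limma 3.58.1) after filterByExpr, in a fit of the 6 libraries of each comparison and of all 12 for the difference between effects, and p-values were adjusted by Benjamini-Hochberg across every transcript tested; a call is an adjusted p under 0.05, two-sided. A DEG also has an absolute log2 fold change over 1. The SE beside a log2 fold change is its absolute value divided by the square root of the F statistic. It was not fitted separately. The procedure was tested on simulated counts. DESeq2 1.42.0, other filters and scaling, fits of other libraries, counts summed per gene and leaving out each library were tried as alternatives. Library totals ran from 5611846 to 12866545, so that 3 counts, the floor for a count of 0, correspond to 0.233 to 0.527 CPM. Motif shares and figures were computed in Python 3.11.15.

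The 39 members and all lists (roles, pathway genes, relatives, markers) were chosen with earlier results of these data known. All members are named; of other lists, at most 3 called genes per list, direction and comparison with the largest absolute log2 fold change are named, besides defining markers.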

Additional observations from a re-analysis of the deposited data

Results flagged for a closer look

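The effect of the knockout (KO against KO-con) differed from that of overexpression (Over against Over-con) for 5 members, by edgeR's quasi-likelihood test of the difference itself with Benjamini-Hochberg adjustment over 9903 transcripts, of which 8.64% were called. The difference, KO effect less Over effect on the log2 scale, was -5.50 (SE 0.70, adjusted p = 3.99e-05) for *Cd48*, which had 1 count in the KO libraries together. It was -0.78 (SE 0.10, adjusted p = 2.55e-05) for *Cytip*, 0.79 (SE 0.11, adjusted p = 0.000134) for *Hcls1*, 0.76 (SE 0.12, adjusted p = 0.000429) for *Lat* and 0.49 (SE 0.14, adjusted p = 0.035) for *Plek*. The call of *Plek* was lost in 9 of the 12 fits that left out a library and with the replicate number as a block, and *Cd48* drops out of the test when at least 10 counts are required in every library. For *Lat*, *Hcls1* and *Cytip*, KO-con lay at one end of the 4 groups, below or above every library of the other 3.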

How the results depend on the processing

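The count of members called in Over against Over-con (2, with 1.65% of all transcripts) moved most. Shares of all transcripts called stand in brackets. It was 5 with DESeq2 (1.84%), which added *Cytip*, *Hcls1* and *Laptm5*, and 4 without a filter on low counts (1.55%). With all 12 libraries in 1 fit it was 1 (1.28%), under the DEG rule of the study 0 (0.17%) and with KO-con as the control 14 (21.52%). When a library was left out it was 1 to 9 (0.49 to 7.49%), with 9 without Over-con replicate 3 (7.49%). Under the DEG rule, 1 member was called in KO (8 otherwise), 2 between the controls (13) and 1 for the difference (5). Of all transcripts, 1.7%, 2.16% and 1.9% met that rule. Leaving out a library gave 6 to 10 members in KO (with 6.23 to 13.03% of all transcripts called), 11 to 14 between the controls (9.17 to 20.84%) and 4 to 7 for the difference (5.26 to 11.04%). Apart from the DEG rule and libraries left out, calls of single members were kept in 182 of 189 recomputed values and lost in 7. *Cd48* is not among these values under the filter of at least 10 counts in every library, which leaves it untested in KO (7 members called) and for the difference (4). No call turned its direction in the same comparison with its own control.

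No pairing of the samples by the replicate numbers of the titles was seen. The deviations of libraries with the same number correlated at -0.155 to 0.057, and 2 of 18 correlated best with their own number. These correlations do not exclude a pairing. With the replicate block the counts were 1 in Over (without *Selplg*), 8 in KO, 12 between the controls and 4 for the difference. The shares of all transcripts called were then 0.71%, 8.85%, 17.38% and 7.4%.

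With only the members of 1 listed transcript, the median level was 195 CPM for KO and 174 for KO-con, and 202 for Over and 175 for Over-con, against 13.8, 12.1, 27.0 and 21.1 over all 39. Of 31 members with relatives, 15 lay above every relative per kilobase when all transcripts were allowed, and 5 of 9 when both genes had 1. The count of 15 includes members set against relatives with several listed transcripts that read 0, such as *Nckap1* and *Tec*. It is therefore not read as a difference in expression. In the 250 upstream bases alone, 40.0% of members held GAGGAA and 13.3% CGGAAG. The depth limits what can be read of members under the floor of 3 counts per library.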
